A study of Homo sapiens with 2 samples.

Results

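Peaks at the promoters of long noncoding RNA (lncRNA) genes, away from the promoters of protein-coding genes, were examined in chromatin profiles of PRMT6 and PARP1. A peak is an interval in which the sequenced fragments piled up above the local level. It was a member when any of its bases fell at most 3 kb from an lncRNA gene's 5′ end while no base came that close to a coding gene's 5′ end. The PRMT6 list held 393 such peaks of 9080 and the PARP1 list held 576 of 11651. On chromosomes 1 to 22 and X, where the genes were assigned, these were 4.33% (95% exact binomial interval 3.92% to 4.77%) of 9074 PRMT6 peaks and 4.95% (4.56% to 5.36%) of 11635 PARP1 peaks. Of 18229 lncRNA and other noncoding RNA genes, the 12833 with a known strand, and thus a known 5′ end, could be used. The study profiled untreated MDA-MB-231, a human cell line established from a triple-negative breast cancer, with 1 library per antibody, to find the promoters that both proteins occupy. No library has a replicate, so no difference here was tested between samples and every interval covers counting error over peaks or genes only. The lists give no read depth and no control library was among the files used here.

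PRMT6 is an arginine methyltransferase whose best known chromatin mark, asymmetric dimethylation of arginine 2 on histone H3, opposes the trimethylation of the neighbouring lysine 4 found at active promoters. PARP1 attaches chains of ADP-ribose to proteins, is best known for DNA repair, and also occupies the promoters of transcribed genes. LncRNA genes are transcribed by RNA polymerase II and often capped, spliced and polyadenylated as coding genes are, but are on average less highly expressed, and fewer of their promoters lie in CpG islands, stretches of DNA that kept their CpG dinucleotides.

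The members named below are shown best by the DNA at the start sites. The following 300-base windows run from 250 bases before the 5′ end into the first transcribed bases, 5′ to 3′ on the gene's own strand, and come from RefSeq (assembly GRCh38.p14). Both a PRMT6 and a PARP1 peak covered bases of each window. MIRLET7A1HG, host of let-7 microRNAs, and LINC03015 were printed because theirs were the best-ranked pairs whose peaks both covered the 5′ end. The other 4 were chosen after their values were seen: MALAT1 and SNHG29 as lncRNA genes with a known name, and LOC124903699 and LOC124904554 because their windows hold the AP-1 site. Capitals mark every match, on either strand, to 8 short motifs: the TATA box (TATAAA), the NF-Y box (CCAAT), the GC box of Sp1 family factors (GGGCGG), the core of ETS sites (CCGGAA), the AP-1 site (TGACTCA), the cyclic AMP response element (TGACGTCA), the E-box (CACGTG) and part of the NRF1 site (TGCGCA).
MALAT1, chr11:65497488-65497787, plus strand: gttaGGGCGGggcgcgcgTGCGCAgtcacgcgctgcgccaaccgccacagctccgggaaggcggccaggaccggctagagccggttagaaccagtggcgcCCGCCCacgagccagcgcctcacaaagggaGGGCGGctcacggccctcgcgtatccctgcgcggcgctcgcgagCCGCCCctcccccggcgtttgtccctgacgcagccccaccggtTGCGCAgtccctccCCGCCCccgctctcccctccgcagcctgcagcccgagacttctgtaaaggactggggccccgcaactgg
MIRLET7A1HG, chr9:94166008-94166307, plus strand: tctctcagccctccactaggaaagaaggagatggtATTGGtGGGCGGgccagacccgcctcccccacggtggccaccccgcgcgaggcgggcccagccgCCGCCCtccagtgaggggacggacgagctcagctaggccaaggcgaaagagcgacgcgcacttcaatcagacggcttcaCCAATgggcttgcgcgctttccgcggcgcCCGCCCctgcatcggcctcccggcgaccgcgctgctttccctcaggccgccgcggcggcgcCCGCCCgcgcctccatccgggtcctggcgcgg
LINC03015, chr7:149389-149688, minus strand: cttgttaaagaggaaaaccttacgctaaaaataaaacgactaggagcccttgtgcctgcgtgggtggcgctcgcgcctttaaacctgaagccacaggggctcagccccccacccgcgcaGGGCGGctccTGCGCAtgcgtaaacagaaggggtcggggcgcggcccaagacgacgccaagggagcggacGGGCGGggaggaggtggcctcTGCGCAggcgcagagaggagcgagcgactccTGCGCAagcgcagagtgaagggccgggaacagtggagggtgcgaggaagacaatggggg
SNHG29, chr17:16438737-16439036, plus strand: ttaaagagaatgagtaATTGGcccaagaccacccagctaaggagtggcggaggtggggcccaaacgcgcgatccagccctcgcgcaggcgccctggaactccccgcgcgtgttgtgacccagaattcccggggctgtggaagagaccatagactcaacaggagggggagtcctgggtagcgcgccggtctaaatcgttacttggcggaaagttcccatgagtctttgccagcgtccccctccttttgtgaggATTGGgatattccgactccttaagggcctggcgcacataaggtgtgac
LOC124903699, chr16:66873206-66873505, minus strand: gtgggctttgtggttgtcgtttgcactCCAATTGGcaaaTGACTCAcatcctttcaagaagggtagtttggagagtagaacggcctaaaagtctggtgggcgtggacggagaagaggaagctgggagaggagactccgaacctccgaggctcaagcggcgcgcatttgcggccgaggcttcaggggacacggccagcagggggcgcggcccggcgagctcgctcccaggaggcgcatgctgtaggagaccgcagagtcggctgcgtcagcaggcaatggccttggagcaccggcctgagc
LOC124904554, chr1:234657148-234657447, minus strand: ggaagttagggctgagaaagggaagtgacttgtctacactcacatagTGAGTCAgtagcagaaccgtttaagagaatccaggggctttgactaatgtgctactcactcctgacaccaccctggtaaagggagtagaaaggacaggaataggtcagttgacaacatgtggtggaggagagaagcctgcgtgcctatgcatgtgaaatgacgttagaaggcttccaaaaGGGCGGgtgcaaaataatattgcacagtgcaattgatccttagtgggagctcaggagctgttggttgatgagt
The peaks of both lists shared 273 bases of the MALAT1 window, 300 of the MIRLET7A1HG window, 116 of the LINC03015 window, 278 of the SNHG29 window, 257 of the LOC124903699 window and 300 of the LOC124904554 window. The first 5 windows held 19 to 38 CpG dinucleotides and had an observed over expected CpG number of 0.74 to 0.97. The LOC124904554 window, in contrast, held 4 CpG dinucleotides, with an observed over expected number of 0.26. The MALAT1 window held 5 matches to GGGCGG, and the MIRLET7A1HG window held 4, with 2 matches to CCAAT. The LINC03015 window held 3 matches to TGCGCA. A match is a run of letters and not a site shown to be bound.

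Members were not spread evenly over the 6 kb around the start sites. The peak centre lay within 500 bp of the lncRNA 5′ end for 194 PRMT6 members (49.4%) and 278 PARP1 members (48.3%). The 500 bp just upstream of the 5′ end held the most, 120 PRMT6 and 168 PARP1 members, followed by the 500 bp just downstream with 74 and 110. Each of the other 500-bp bins within 3 kb held 11 to 30 PRMT6 members and 19 to 40 PARP1 members. The peak covered the 5′ end itself in 122 PRMT6 members (31.0%) and 136 PARP1 members (23.6%). It lay wholly upstream in 127 and 211 and wholly downstream in 144 and 229. For 67 PRMT6 and 106 PARP1 members the centre was 2 to 3 kb away, so these are near an annotated lncRNA start without lying at it.

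**Figure D1:**
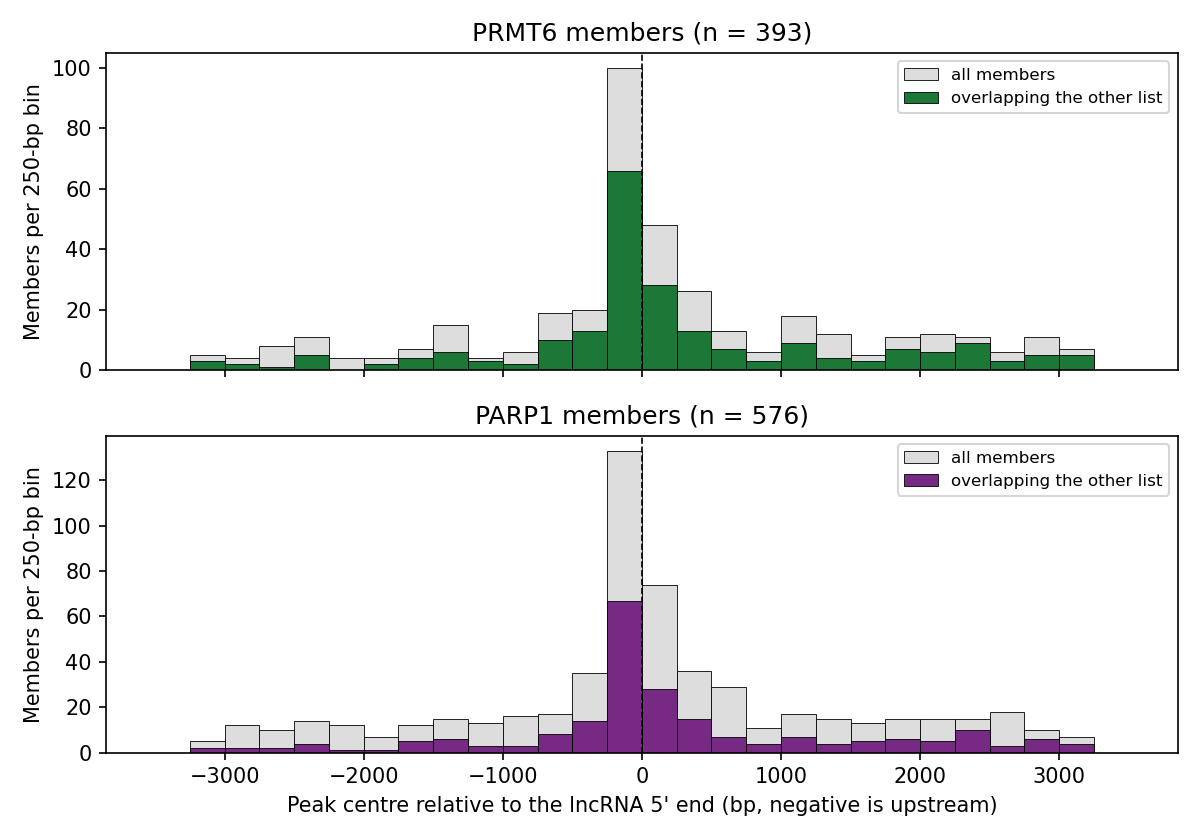
Number of PRMT6 (upper panel) and PARP1 (lower panel) members per 250-bp bin of the distance from the lncRNA 5′ end to the peak centre in bp, negative values being upstream, with the members that overlap a peak of the other list in colour and all members in grey. Both panels have their highest bar just upstream of the 5′ end.

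The members bordered on peaks that the 3 kb limit left out. With the lncRNA start 2.5 to 3 kb away, 31 PRMT6 members had a median score percentile of 51.1 within their list and 48.4% (30.2% to 66.9%) overlapped a PARP1 peak. The 33 peaks 3 to 3.5 kb away had a median of 32.1 and an overlap of 24.2% (11.1% to 42.3%). For PARP1 the 46 members inside that limit had a median percentile of 49.4 and an overlap of 30.4% (17.7% to 45.8%). The 46 peaks outside had 44.5 and 19.6% (9.36% to 33.9%). In both lists the intervals inside and outside the limit overlap. Few peaks lay at the limit to coding starts, with 8 PRMT6 and 9 PARP1 members at 3 to 3.5 kb and 12 and 11 peaks of the 2 lists at 2.5 to 3 kb.

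Nearly all members stood for a gene of their own. The 393 PRMT6 members were nearest to 383 lncRNA genes and the 576 PARP1 members to 545. In the PRMT6 list 10 genes had 2 members, among them MIR181A1HG and MIR181A2HG, both hosts of miR-181 microRNAs. In the PARP1 list 29 genes had 2 and GASAL1 had 3. By symbol, 199 PRMT6 and 278 PARP1 members belonged to genes that carry only a LOC number and no given name. Genes named as long intergenic RNAs (LINC) had 82 and 128, genes named as antisense to a coding gene (AS) had 59 and 106, hosts of small RNAs had 12 and 14 and genes named as divergent transcripts (DT) had 8 and 11. The peak overlapped the record of a coding gene, in whole or in part, in 145 PRMT6 members, 134 of them at an lncRNA on the opposite strand, and in 196 PARP1 members, 182 of them on the opposite strand. The nearest coding 5′ end was 3 to 10 kb away in 68 PRMT6 and 88 PARP1 members and over 100 kb away in 84 and 135. Of the members on chromosomes with a table of further start sites, 54 PRMT6 and 74 PARP1 members lay within 3 kb of another start of a coding gene, those at EPC1-AS1, SLC25A28-DT and NRAV for example.

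The lists coincided at 219 PRMT6 members, 55.7% (50.7% to 60.7%), each sharing 1 bp or more with a PARP1 peak. Over all 9074 PRMT6 peaks the share was 46.4%. It was 69.1% (67.4% to 70.7%) at coding promoters and 33.4% (32.1% to 34.6%) at all other places. Of the PARP1 members, 222 or 38.5% (34.5% to 42.7%) overlapped a PRMT6 peak, against 36.4% over all 11635 PARP1 peaks, 54.9% (53.3% to 56.5%) at coding promoters and 26.2% (25.2% to 27.3%) elsewhere. Thus in both lists lncRNA promoter peaks lay between coding promoter peaks and other peaks. The interval of the PARP1 members holds the 36.4% of all PARP1 peaks, so their share was near that of the whole list. The PRMT6 share was lower than at coding promoters by 13.4 percentage points (Newcombe interval 8.27 to 18.6) and higher than elsewhere by 22.3 (17.2 to 27.3). The PARP1 share was lower than at coding promoters by 16.3 points (12.01 to 20.5) and higher than elsewhere by 12.3 (8.28 to 16.5).

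Scores showed the same order. As deposited, a score is read as the caller's p-value, or a corrected form of it, as −log10, and only its rank within a list was used, where the percentile of the best peak is near 100 and rank 1 is the best. The median percentile of the PRMT6 members was 57.3 (54.6 to 60.9), between 70.2 at coding promoters and 39.3 elsewhere. That of the PARP1 members was 51.5 (48.5 to 54.8), between 60.0 and 44.2, and its interval holds the middle of the list. In the top 10% of the PRMT6 list were 31 members, 7.89% (5.42% to 11.0%), against 9.95% of all PRMT6 peaks and 18.8% of those at coding promoters. In the top 10% of the PARP1 list were 56 members, 9.72% (7.43% to 12.4%), against 9.99% of all PARP1 peaks and 14.0% at coding promoters. The share of members at the top of either list was therefore near that of all peaks. Members were narrower than coding promoter peaks, with a median width of 310 bp against 373 bp for PRMT6 and 271.5 bp against 296 bp for PARP1. The smallest width that a list holds, 288 bp for PRMT6 and 200 bp for PARP1, was that of 173 PRMT6 members (44.02%) and 152 PARP1 members (26.4%).

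Overlap was more frequent at higher scores, and the classes differ in score, so the classes were also compared within quartiles of the score. In the highest quartile of the PRMT6 list, 85.8% (78.0% to 91.7%) of members overlapped a PARP1 peak, with 89.6% at coding promoters and 87.6% elsewhere, and these intervals overlap. In the lowest PRMT6 quartile the shares were 17.8% (9.84% to 28.5%), 32.1% (27.3% to 37.2%) and 9.30% (8.005% to 10.7%). In the second, members at 41.1% (30.8% to 52.0%) lay below coding promoter peaks at 50% (45.5% to 54.5%) and above other peaks at 18.6% (16.8% to 20.6%). In the third the 3 classes lay at 61.5% (52.1% to 70.4%), 64.3% (61.1% to 67.5%) and 51.2% (48.4% to 53.9%). Within each PRMT6 quartile the interval of members met that of coding promoter peaks. Only in the second did it lie clear of that of other peaks. The PARP1 members stayed below coding promoter peaks higher up the list, with 69.0% (61.1% to 76.2%) against 84.97% (82.9% to 86.9%) in the highest quartile and 40.1% (32.1% to 48.5%) against 53.9% (50.9% to 56.9%) in the third. Among PARP1 peaks elsewhere the shares of these quartiles were 61.9% and 28.2%.

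**Figure D2:**
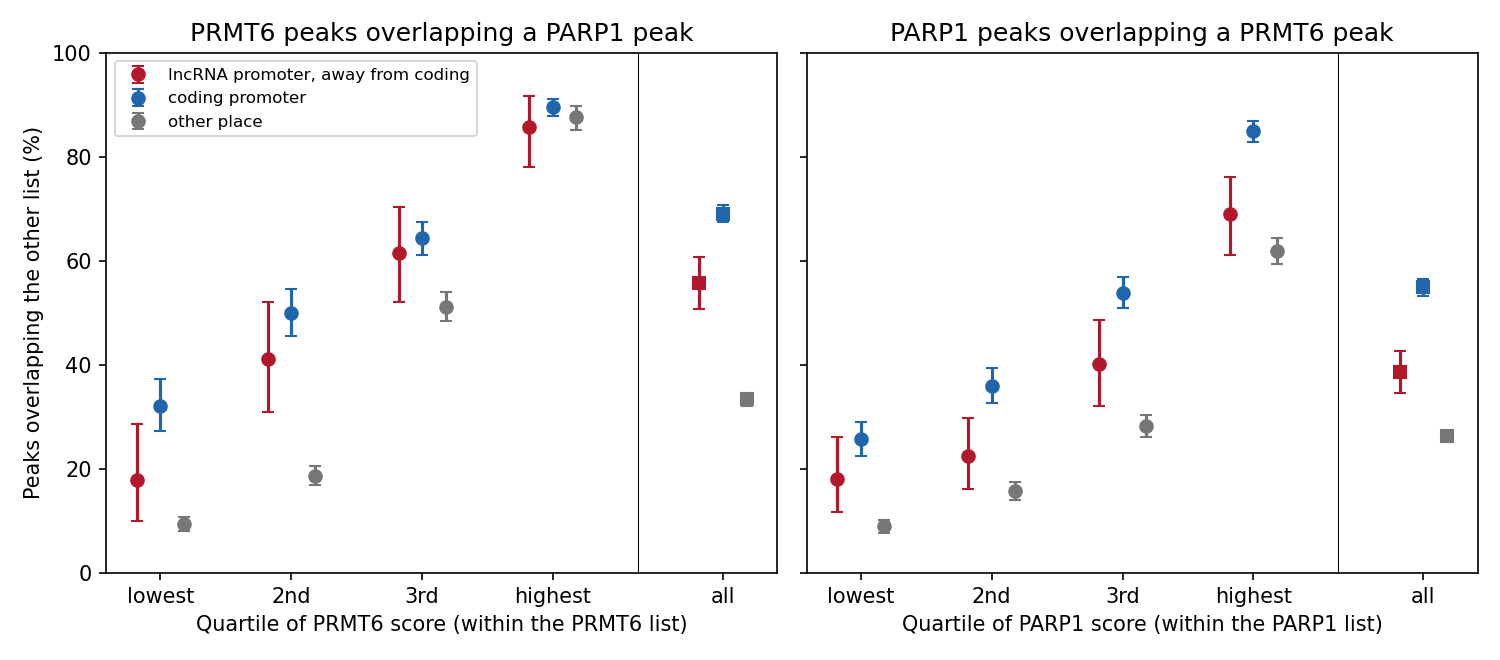
Percentage of PRMT6 peaks that overlap a PARP1 peak (left) and of PARP1 peaks that overlap a PRMT6 peak (right), by quartile of the score within the list and for all peaks, at lncRNA promoters away from coding promoters (red), coding promoters (blue) and other places (grey). Bars are 95% exact binomial intervals, and PRMT6 peaks of the 3 classes come together in the highest quartile at 85.8% to 89.6%, whereas PARP1 peaks run from 61.9% to 84.97%.

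Peaks that covered the lncRNA 5′ end coincided most often. In the PRMT6 list 67.2% (58.1% to 75.4%) of the members that covered the 5′ end overlapped a PARP1 peak, against 47.2% (38.3% to 56.3%) of those upstream and 53.5% (45.0% to 61.8%) of those downstream. In the PARP1 list the shares were 54.4% (45.7% to 63.0%), 31.8% (25.5% to 38.5%) and 35.4% (29.2% to 41.9%). The members that covered the 5′ end also had higher scores, with a median percentile of 71.1 for PRMT6 and 63.7 for PARP1 against 46.6 to 53.3 in the other groups of both lists, and the part of the score in this difference was not tested. Members of genes with only a LOC number overlapped in 48.7% (41.6% to 55.9%) of cases for PRMT6, those of LINC genes in 64.6% (53.3% to 74.9%) and those of AS genes in 61.0% (47.4% to 73.5%). For PARP1 these shares were 35.3%, 41.4% and 34.9%, with overlapping intervals.

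The overlapping members formed 218 pairs in which both peaks were members. The centres of the peaks in a pair were a median of 60.2 bp apart, and the median overlap of 288 bp covered 78.8% of the PRMT6 peak and 85.4% of the PARP1 peak at the median. Both peaks covered the 5′ end in 64 pairs. Across pairs the percentiles of the scores in the lists went together weakly, with a Spearman's rho of 0.29 over 218 pairs against 0.54 over 2107 pairs at coding promoters and 0.43 over 1880 elsewhere. The pairs of a class share 2 libraries and are not replicates, so rho is a description. The PARP1 percentile was the higher in 110 pairs and the PRMT6 percentile in 108, and 12 of the 218 pairs were in the top 10% of both lists. Such pairs were not counted at coding promoters or elsewhere, so the 12 cannot be called many or few.

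**Figure D3:**
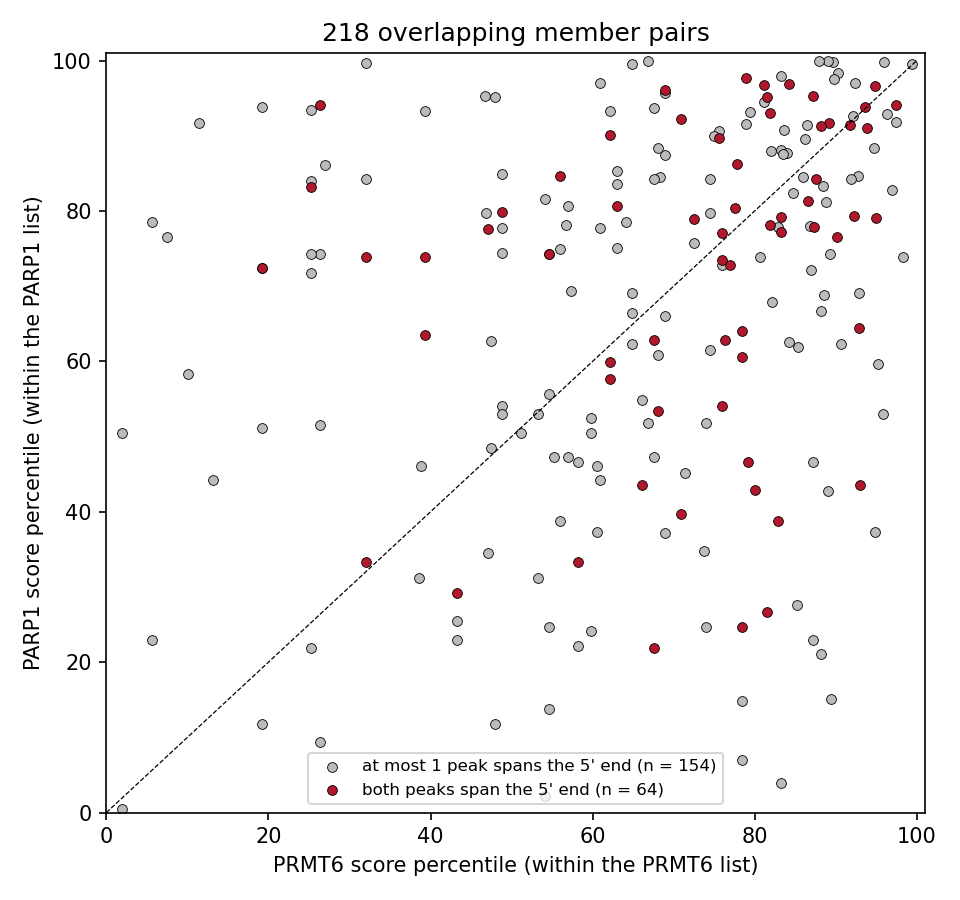
Score percentile within the PRMT6 list (x axis) against that within the PARP1 list (y axis) for the 218 overlapping member pairs, with the 64 pairs in which both peaks cover the lncRNA 5′ end in red and a dashed line where the percentiles are equal. Points fill both sides of the line and are densest at upper right, with a Spearman's rho of 0.29.

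The pair with the best mean rank lay upstream of ITGB1-DT, the divergent transcript of the gene for integrin beta 1. Its PRMT6 peak, at chr10:32980464-32980989, ranked 55 with a score of 26.6, the best of all PRMT6 members. Its PARP1 peak, at chr10:32980498-32980944, ranked 51 with a score of 31.2. The PARP1 peak lay wholly within the PRMT6 peak, the centres were 5.5 bp apart, and the nearer peak ended 1562 bp before the lncRNA 5′ end and 22234 bp from that of ITGB1.

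The next 9 pairs included several at which PARP1 ranked far better than PRMT6. LINC01348 had ranks of 373 for PRMT6 and 20 for PARP1, with peaks 1730 to 2291 bp downstream of the 5′ end. LINC02977, within the record of SUSD1, had 928 and 28, LOC124902378, within that of FRMD4A on the opposite strand, had 1093 and 9, and LINC01719 had 992 and 4. At LINC01719 the peaks lay upstream of the 5′ end, within 1 kb of RNVU1-6, a variant gene of the U1 small nuclear RNA, so a peak there cannot be given to the lncRNA alone. LINC03015 had ranks of 466 and 391, with the PRMT6 peak at chr7:149009-149597 and the PARP1 peak at chr7:149180-149504. MIRLET7A1HG had 233 and 690, with the PRMT6 peak at chr9:94165816-94166609, the widest of all PRMT6 members at 793 bp, and the PARP1 peak at chr9:94165945-94166323. These were the only 2 of the first 10 pairs whose peaks covered the 5′ end. LINC01011 had 687 and 345, LOC101927949 had 875 and 190, and FAM85B had 331 and 826.

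**Figure D4:**
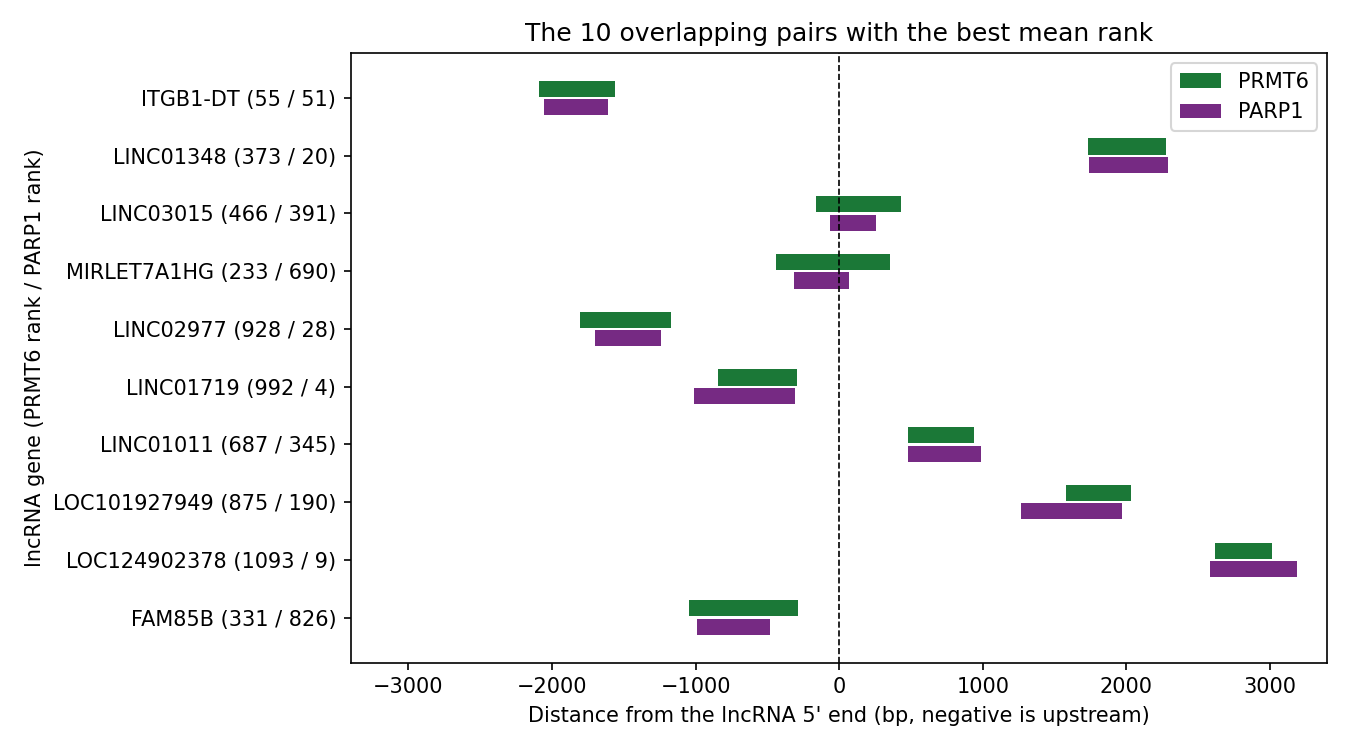
Extent of the PRMT6 peak (green) and the PARP1 peak (purple) in bp from the lncRNA 5′ end, negative being upstream, for the 10 overlapping pairs with the best mean rank, with both ranks beside each gene. Only the LINC03015 and MIRLET7A1HG peaks cross the dashed line at the 5′ end, and the other pairs lie 290 bp to 3191 bp from it.

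Other members ranked high in 1 list and lower in the other. The best PRMT6 members after ITGB1-DT were those at LOC124905136, rank 150, at LOC101928626, rank 232, at MIRLET7A1HG and at LOC124904691, rank 275. The PARP1 peaks on LOC124905136 and LOC124904691 ranked 3016 and 2001. The LOC101928626 peak lay wholly within MTND2P28, a nuclear copy of a mitochondrial gene, and the part of mitochondrial fragments in its score was not tested. The peak at LOC124904691 lay within 1 kb of a threonine tRNA gene. The best PARP1 members were LINC01719, CLASP1-AS1 with rank 5, LOC124902378, LINC01348 and LINC02977. CLASP1-AS1 had a PRMT6 rank of 3000, and its PARP1 peak at chr2:121530848-121531569 lay within 1 kb of RNU4ATAC, a small nuclear RNA gene of the minor spliceosome. The 4 PARP1 members within 1 kb of a small nuclear RNA gene had a median percentile of 99.7, whereas the 533 without any small RNA gene or pseudogene within 1 kb had 50.4. For PRMT6 the contrast was smaller, with 66.9 in 3 members against 56.8 in 353.

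Among PRMT6 members with no PARP1 overlap, a second peak at LOC101928626 ranked best at 453 and lay wholly within another such copy, MTCO1P12. It was followed by LOC105371409 with rank 606, LOC124904731 with 620, HIF1A-AS3 with 686 and LOC124903558 with 1007. For LOC105371409, antisense to CBFA2T3, the nearest PARP1 peak was 45387 bp away. Among PARP1 members with no PRMT6 overlap, LOC105374852 ranked best at 161 and lay within 1 kb of RNU2-63P, a copy of the U2 small nuclear RNA gene. NRAV, whose RNA is a negative regulator of the antiviral response, followed with rank 586, with the nearest PRMT6 peak 138736 bp away. LINC01567 had rank 690, LOC107985502 had 840 and LOC105372092 had 847.

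A list of lncRNA genes with a known name and role held 84 names of 81 genes, since 4 names are older symbols of GAS5, DANCR and MEG8. Of these genes 51 had a start more than 3 kb from any coding start, and 16 of them had a member, 10 in both lists, 2 in the PRMT6 list alone and 4 in the PARP1 list alone. Thus 31.4% (19.1% to 45.9%) of the 51 had a member of either list and 19.6% (9.82% to 33.1%) of both, against 7.15% and 2.33% of 10081 lncRNA genes so placed. The list holds well-studied genes and was drawn up with earlier results known, so this is a description of these genes. The other 35 had no member, among them NEAT1, the scaffold of paraspeckles, and NORAD, which binds Pumilio proteins. The remaining 30 were not assessed: 24 because a coding start lay within 3 kb of theirs, as for GAS5 and ZFAS1, 5 because their records are not of the lncRNA type used and 1 because its strand was not known. The counts rest on peaks that passed the caller's threshold, so a gene without a member may still have had signal below it.

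MALAT1, an abundant RNA of nuclear speckles, had peaks of both lists over its 5′ end. The PRMT6 peak at chr11:65497343-65497923 ranked 455 and the PARP1 peak at chr11:65497368-65497760 ranked 2447. Of the 10 genes with both, 5 host small nucleolar RNAs, a kind common on the list because SNHG1 to SNHG33 were put on it. Other assessed hosts, such as SNHG6, SNHG8 and SNHG11, had no member. Of 93 hosts of small RNAs with a start over 3 kb from a coding start, 9.68% (4.52% to 17.6%) had members of both lists. The share of all 10081 genes so placed was 2.33%, and a preference for hosts was not tested. SNHG29 had ranks of 556 for PRMT6 and 1051 for PARP1, SNHG25 had 1128 and 1827, SNHG15 had 5468 and 4226, and SNHG5 had 4181 and 7982. DANCR, named for a role against differentiation, had 3023 and 6512. The peaks of these 5 genes covered or adjoined the 5′ end, the farthest being the PARP1 peak of SNHG5, 74 bp upstream. LUCAT1, a stress-responsive lncRNA, had ranks of 1221 and 1003 for peaks over 2 kb downstream of its 5′ end, and a further PARP1 peak at the 5′ end with rank 6689. MIR181A1HG had ranks of 1281 and 1801 for peaks about 1.6 kb downstream, and a PRMT6 peak at its 5′ end, rank 1694, without PARP1 overlap. DLEU2, host of miR-15a and miR-16-1, had 2171 and 3148, and DLEU1 beside it had 2895 and 5390.

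PRMT6 alone had a member at SNHG16, rank 1986, and at CYTOR, rank 8171, the latter a peak of the smallest width. PARP1 alone had a member at EPB41L4A-AS1, rank 3398, at MIAT, rank 7383, at SNHG30, rank 8457, and at SNHG12, rank 9876. CYTOR, MIAT, SNHG30 and SNHG12 had percentiles of 8.76, 35.8, 26.7 and 15.1 in their lists, below the median, and SNHG16 and EPB41L4A-AS1 had 77.9 and 70.6.

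Counted by gene, a member of either list was at few lncRNA promoters. Of 10081 lncRNA genes with a known strand and a start more than 3 kb from any coding start, 394 or 3.91% (3.54% to 4.31%) had a PRMT6 member and 562 or 5.57% (5.13% to 6.04%) had a PARP1 member. Both lists had a member at 235 genes, which were 59.6% of those with a PRMT6 member and 41.8% of those with a PARP1 member. PRMT6 alone had 159, PARP1 alone 327, and 9360 had no member. Over all 12833 lncRNA genes with a known strand, 237 had members of both.

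The share differed between kinds of lncRNA gene. Of 93 hosts of small RNAs, 11.8% (6.05% to 20.2%) had a PRMT6 and 15.1% (8.48% to 24.0%) a PARP1 member, and of 31 divergent transcripts 22.6% (9.59% to 41.1%) and 25.8% (11.9% to 44.6%) had one. Of 5998 genes with only a LOC number, 3.25% (2.82% to 3.73%) and 4.602% (4.09% to 5.16%) had one. LINC genes, with 3.95% (3.17% to 4.85%) and 6.01% (5.05% to 7.10%) of 2178, and AS genes, with 5.14% (3.96% to 6.54%) and 8.13% (6.65% to 9.81%) of 1206, lay between. Some members of these kinds lay within 3 kb of another start of a coding gene, for example at SLC25A28-DT, TAF12-DT and RASSF1-AS1. The shares were not recomputed without such members, so they are not those of lncRNA starts alone.

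The promoter windows of these genes were then compared in CpG content, which took no part in choosing the members. A window was available for 86.7% of the 10081 genes. The observed over expected CpG number had a median of 0.46 (0.39 to 0.60) at 206 genes with members of both lists, 0.35 (0.32 to 0.42) at 147 genes with PRMT6 alone, 0.33 (0.29 to 0.36) at 300 genes with PARP1 alone and 0.23 (0.22 to 0.23) at 8089 genes with none. Windows with an observed over expected number of at least 0.6 and a GC content of at least 50%, called CpG-rich here, were 41.3% (34.5% to 48.3%) at genes with both, 23.1% (16.6% to 30.8%) and 22.7% (18.1% to 27.8%) at genes with PRMT6 or PARP1 alone and 9.91% (9.27% to 10.6%) at genes with none. Seen from the windows, 18.9% (16.5% to 21.5%) of 989 genes with a CpG-rich window had a member of either list, against 6.01% (5.49% to 6.56%) of 7753 without. Among genes with a member the CpG-rich share was 56.4% (42.3% to 69.7%) where peaks of both lists covered the 5′ end, 49.6% (40.4% to 58.8%) where 1 list did and 20.1% (16.6% to 24.0%) where neither did. The base composition of the fragments and the expression of the genes were not among the data used here, and their part in this difference was not tested. Genes whose members lay within 3 kb of another start of a coding gene were kept, and the comparison was not repeated without them.

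**Figure D5:**
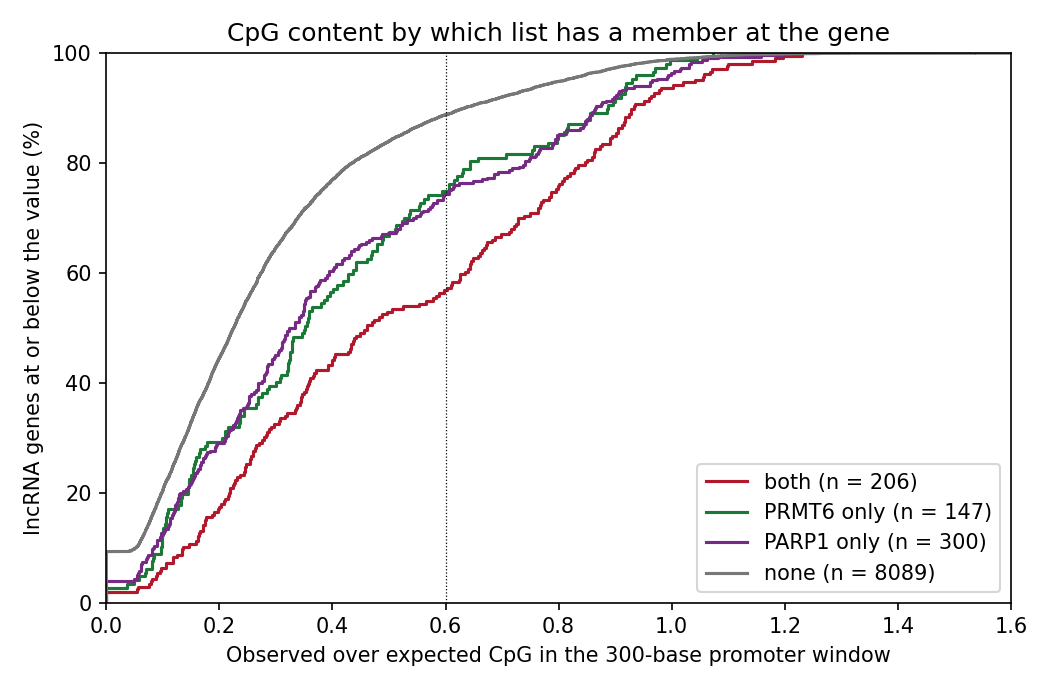
Cumulative percentage of lncRNA genes (y axis) by the observed over expected CpG number of the 300-base promoter window (x axis), for genes with members of both lists (red), of PRMT6 alone (green), of PARP1 alone (purple) and of neither (grey), with a dotted line at 0.6. The curve of genes with both lies farthest to the right, with a median of 0.46 against 0.23 for genes with neither.

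Short motifs were counted in the same windows, without a split by CpG content. Among all 34961 promoter windows in the table, of lncRNA and coding genes, GGGCGG was matched in 45.0%, CCAAT in 34.6%, CCGGAA in 17.3%, TATAAA in 11.5%, TGCGCA in 8.25%, CACGTG in 7.27%, TGACTCA in 4.92% and TGACGTCA in 1.85%. Both strands were searched, no motif holds another, and matches may share bases. GGGCGG was in 42.7% (35.9% to 49.8%) of windows at genes with members of both lists and 14.2% (13.5% to 15.0%) at genes with none, and TGCGCA in 13.1% (8.82% to 18.5%) and 2.92% (2.56% to 3.31%). TATAAA went the other way, with 7.77% (4.50% to 12.3%) and 18.3% (17.5% to 19.2%), and for CCAAT the intervals overlapped, with 33.5% (27.1% to 40.4%) and 36.2% (35.1% to 37.2%). Among genes with a member, however, CCAAT was in 52.7% (38.8% to 66.3%) of windows where peaks of both lists covered the 5′ end and 42.1% (33.2% to 51.5%) where 1 list did, against 30.2% (26.1% to 34.5%) where neither did.

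TGACTCA, which holds no CpG, was matched in 14.1% (9.64% to 19.6%) of windows at genes with members of both lists, 12.9% (7.96% to 19.4%) with PRMT6 alone and 18.7% (14.4% to 23.5%) with PARP1 alone, against 6.85% (6.31% to 7.42%) at genes with none. Where peaks covered the 5′ end it was in 21.8% (11.8% to 35.0%) of windows for both lists and 28.9% (21.0% to 37.9%) for 1 list, and where no peak did it was in 11.9% (9.18% to 15.2%). The LOC124903699 and LOC124904554 windows printed above are examples, with PRMT6 ranks of 579 and 1420 and PARP1 ranks of 710 and 367. CACGTG was in 6.31% (3.40% to 10.5%) of windows at genes with both, 5.44% (2.38% to 10.4%) with PRMT6 alone, 9.33% (6.29% to 13.2%) with PARP1 alone and 4.61% (4.16% to 5.09%) with none, so that only the interval for PARP1 alone lay above that for none.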

How the data were processed

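PRMT6 and PARP1 were profiled in MDA-MB-231 cells with 1 library each. CUT&Tag (tagging of DNA by a transposase that an antibody guides) is the assay named in the methods, whereas the labels also describe ligation of adaptors to immunoprecipitated DNA, so the chemistry is uncertain. The submitters' processing notes name CASAVA 1.4, Bowtie 0.12.8, MACS, MACS2 and hg19. The deposited lists give chromosome, start, end and a score, read as the −log10 of a p-value from the authors' peak caller (whether corrected is not given in the sources used here). Depth, controls and thresholds are likewise not given.

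Positions did not match hg19 (GRCh37): 55 PRMT6 and 61 PARP1 peaks ended beyond its chromosome ends, and 9.21% and 9.15% of peaks lay within 1 kb of an lncRNA start in GRCh38 against 2.51% and 2.60% in GRCh37. RefSeq gene records of GRCh38.p14 were therefore used, with 1 start per gene and coordinates as listed. Their strand came from the RefSeq promoter table or, where absent, from the GENCODE gene of the same name (the tables gave the same strand in 99.5% of 19172 genes). Of 18229 lncRNA and other noncoding RNA genes, 12833 had a strand; the other 5396, of which 690 on chromosome 8, were left out, and 300 coding genes without strand were guarded at both ends. Motifs and CpG were counted in RefSeq promoter windows, since peak sequence in GRCh38 was not analysed here.

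Overlap, exact binomial, order-statistic (medians) and Newcombe (differences) intervals at 95% were computed in Python 3.11.15 with numpy 2.4.6, pandas 2.3.3 and scipy 1.17.1, and plots with matplotlib 3.10.9. On simulated peaks the class was right in 600 of 600 and the overlap in 600 of 600. No test between groups was possible with single libraries. The members, the list of 81 named genes and the motifs were chosen with earlier results of these data known. Named are the 10 overlapping pairs with the best mean rank, the 5 best members of each list, the 5 best without overlap, every listed gene with a member, and genes with the most members. Alternatives covered scores, widths, windows, gene sets and overlap rules.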

Additional observations from a re-analysis of the deposited data

How the results depend on the processing

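No paired analysis was possible because there is 1 library for each antibody. Of 60 recomputed shares and medians, 36 stayed within the interval of the reported value and 24 left it, and of 9 recomputed counts of genes with both, 6 stayed within 1.5 times the reported count and 3 did not; the cause was not tested where a setting does not itself remove peaks or genes. The share of peaks at lncRNA promoters, 4.33% for PRMT6 and 4.95% for PARP1, became 2.82% and 3.19% with an lncRNA window of 1 kb, 3.58% and 4.19% with a coding window of 10 kb, 2.20% and 2.62% without LOC genes, 2.73% and 3.27% outside coding gene records, 6.07% and 7.07% with both ends of genes without a strand, and 3.74% and 4.31% when every listed coding start was avoided (chosen after seeing the data). The PRMT6 share was 5.04% in the higher-scoring 50% of the list, 5.17% without peaks of the smallest width and 3.89% without small RNA genes or pseudogenes within 1 kb. The settings on score and width shortened both lists, so overlap under them was counted with the shortened other list. PRMT6 members overlapped a PARP1 peak in 70.9% without the smallest widths, 62.5% without LOC genes and 45.3% with a reciprocal overlap of 50%. Against the whole PARP1 list, 74.5% of the PRMT6 members above the smallest width overlapped. PARP1 members overlapped a PRMT6 peak in 43.7% in the higher-scoring 50%, 30.9% with reciprocal overlap and 44.5% with lists of equal length. The median PRMT6 percentile was 61.4 with the 1 kb window. It was 49.3 in the higher-scoring 50% and 48.6 without the smallest widths. There percentiles were ranked anew within the shortened list, so these values are not on the scale of the reported 57.3 and show no fall in score. Genes with both numbered 237, and 136, 133 and 154 in the higher-scoring 50%, without LOC genes and outside coding records. Under all 12 settings members overlapped less than coding promoter peaks and more than other peaks in both lists. For PRMT6 the intervals met those of coding promoters under 3 settings (the higher-scoring 50%, no smallest widths, no LOC genes) and those of other peaks under 2 (the first 2 of these). Those 2 settings shortened the PARP1 list as well. Depth is unknown, so an absent peak sets no limit on the signal.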
